A study of Mus musculus with 30 samples.

Results

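Wildtype cells were followed over the last day of an in vitro model of body axis formation, from day 3 (d3) to day 4 (d4) of differentiation. The comparison took the 3 d3 wildtype and the 3 d4 wildtype libraries, 6 of the 30 libraries of the series, and was described across the 12149 genes that passed a filter on low counts. Mouse embryonic stem cells of the line ES-Bruce4 had been kept in N2B27 medium with the growth factor FGF2 up to day 2, and the Wnt pathway was then switched on with CHIR99021 (CHIR), an inhibitor of the kinase GSK3. The d3 cells had received FGF2 with CHIR for 24 h and were labelled as neuromesodermal progenitors (NMPs), and the d4 cells were d3 cells kept with both agents for 24 h more. No Gdf11 was given to either group, and neither carried a deletion of Nr6a1, the nuclear receptor gene that the series is about. The series also holds d2 and d2.5 cells, d4 cells given Gdf11 (d4G), and Nr6a1-/- cells of each stage, which came from 1 clone. The labels do not say that replicates were separate cultures, so that the spread between replicate libraries may be technical. The p-values rest on such a spread estimated from all 30 libraries, not from the 6 alone. The sequencing pools are not given, so that pool and stage cannot be told apart. In a bulk culture a transcript can change because fewer cells carry it or because each cell carries less of it, and these cannot be told apart here.

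NMPs are cells of the caudal epiblast that can give rise both to the spinal cord and to the paraxial mesoderm. They carry the T-box factor T (Brachyury) together with the neural factor Sox2, and are maintained by Wnt and FGF signals. When they enter the mesoderm they lower T, switch on Tbx6 and the Notch ligand Dll1, and become the presomitic mesoderm, in which a Notch-driven clock times the formation of somites. Hox genes are switched on in the order of their place in the 4 clusters, anterior genes first, and give cells their position along the axis.

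The 6 libraries held 2081902 to 3688197 counts, and levels are given as CPM, counts relative to a library total that was scaled by the TMM method, which corrects for a few genes taking up a library. Each mean is given with its SD over 3 libraries. A count of 0 in a library allowed up to 3 counts, 0.829 to 1.45 CPM. The d4 replicate 2 stood apart. In 19 genes that were at 20 CPM or more at d2 and at most 10% of that at d3, the summed level was 339, 324 and 326 CPM in the d3 libraries and 183, 1175 and 191 CPM in the d4 libraries. The d4 replicate 2 thus carried 25.0% of the d2 level, and 18 of the 19 genes were highest in it among the d4 libraries. Dnmt3b, a DNA methyltransferase of the epiblast, stood at 71.1, 516 and 68.7 CPM at d4, and Pou3f1, an epiblast factor, at 3.05, 83.2 and 2.10 CPM. How these transcripts came into the library was not tested, and values and counts of calls are given without d4 replicate 2 where that library changed a call.

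**Figure D1:**
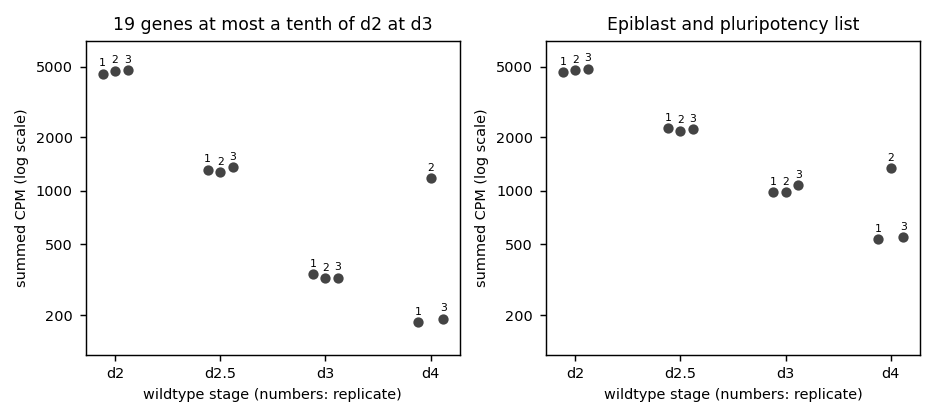
Summed CPM (log scale) of the 19 genes that were at most 10% of their d2 level at d3 (left) and of the epiblast and pluripotency list (right) in each wildtype library, by stage, with the replicate number beside each point. At d4 the libraries 1 and 3 sit at 183 and 191 CPM on the left, and library 2 at 1175 CPM, near the d2.5 libraries.

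Across all genes, edgeR, with its quasi-likelihood test and p-values adjusted by the Benjamini-Hochberg method, called 2560 genes at an adjusted p under 0.05, 21.1% of those tested. Of these, 1187 genes (9.77%) were higher and 1373 (11.3%) lower at d4. The count of calls in each list below is to be read against these shares of all genes. The rises of 334 genes and the falls of 625 genes were at least 2-fold, and 113 genes rose and 116 fell at least 4-fold. Changes under 1.5-fold made up 34.9% of the calls, and the median log2 fold change over all genes was 0.00. Without d4 replicate 2, 1077 genes were higher and 1247 lower, 2071 genes were called in the same direction as before, 201 rises and 286 falls were lost, and 251 genes were gained. The sign turned in 4 called genes, Pim2, Pou3f1, Fgf5 and Otx2, all of them among the 19 d2-like genes.

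**Figure D2:**
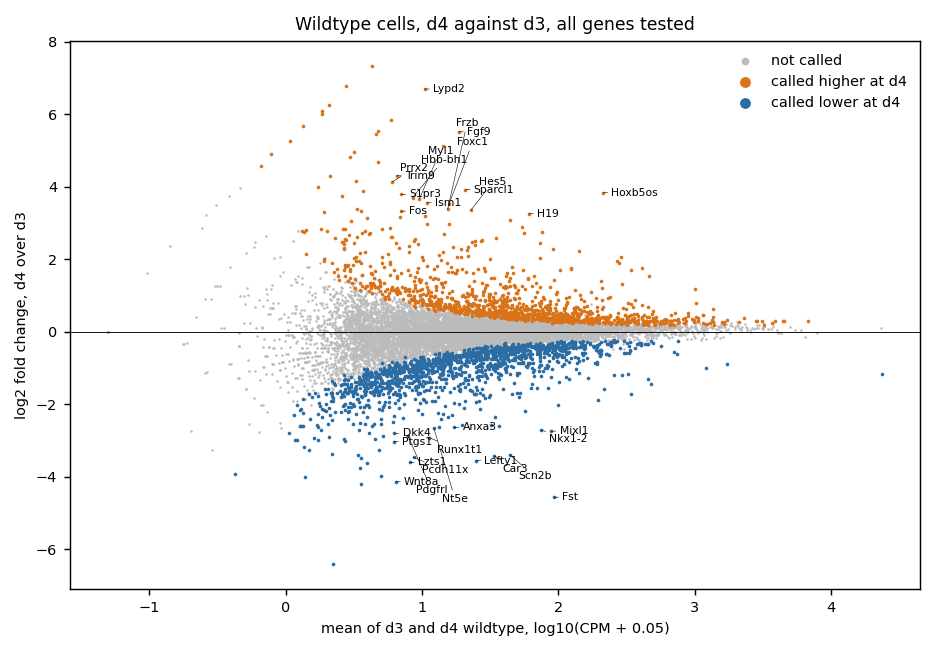
Log2 fold change, d4 over d3, against the mean level of the d3 and d4 wildtype libraries, log10(CPM + 0.05), for each of the 12149 genes tested. Orange points are the 1187 genes called higher and blue points the 1373 called lower; the labelled genes are the 15 largest rises and 15 largest falls that met the rule for named genes, from Lypd2 at 6.70 to Fst at -4.56.

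Among genes at 10 CPM or more in 1 of the stages, with separate values in the d3 and d4 libraries and the same call without d4 replicate 2, the largest rise was that of Lypd2, a gene of the Ly6 family of surface proteins. It stood at 0, 0.460 and 0 CPM in the d3 libraries and at 19.6, 20.7 and 21.6 CPM at d4. Its log2 fold change was 6.70 ± 0.52 (adjusted p = 4.07e-12). The value after ± beside a log2 change is that change, without sign, over the square root of the test's F statistic. This is an approximate SE, which can lie below counting error alone. Since d3 held 1 count of Lypd2 against 192 at d4, the ratio of the pooled counts per total was 140. Its 95% interval from counting error alone was 24.8 to 5561, wider than the ± value implies. Fgf9, a secreted FGF ligand, went from 1.45, 0 and 0.800 CPM to 34.9, 32.3 and 41.7 CPM (log2 5.52 ± 0.42, adjusted p = 1.33e-12). Both genes were thus at or near the level that a count of 0 allows at d3 and well above it in every d4 library. Trim9, a ubiquitin ligase of neurons, rose by 4.30, the homeobox gene Prrx2 by 4.13 and the matrix protein gene Sparcl1 by 3.92 on the log2 scale. The antisense transcript Hoxb5os (chr11:96291024-96306910, minus strand, GRCm38) went from 33.3, 21.6 and 28.4 CPM to 441, 349 and 404 CPM (log2 3.84 ± 0.17, adjusted p = 3.21e-19). It spans Hoxb5 on the other strand and overlaps Hoxb6, and since the use of strand in the counting is not stated, reads of these genes cannot be told apart. The other large rises were in the sphingosine-1-phosphate receptor gene S1pr3 (log2 3.79), the embryonic globin gene Hbb-bh1 (3.7), the myosin light chain gene Myl1 (3.67), the secreted Nodal antagonist Ism1 (3.57), the forkhead factor Foxc1 (3.52), the secreted Wnt antagonist Frzb (3.38), the Notch target Hes5 (3.36), the immediate early gene Fos (3.33) and the imprinted non-coding RNA H19 (3.26).

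The largest fall was that of Fst, which encodes follistatin, a secreted antagonist of activins and Gdf11. It stood at 190, 175 and 172 CPM at d3 and at 5.23, 7.46 and 9.31 CPM at d4, a log2 fold change of -4.56 ± 0.14 (adjusted p = 7.25e-24). Its level had been 8.45 CPM at d2 and 191 CPM at d2.5, so that the d4 mean of 7.33 ± 2.04 CPM lay close to that of d2. Wnt8a, a ligand of the early primitive streak, fell from 9.17, 10.6 and 16.4 CPM to 0.872, 0.553 and 0.600 CPM (log2 -4.13 ± 0.48, adjusted p = 3.33e-08). Lefty1, a feedback inhibitor of Nodal, fell from 40.1, 50.6 and 47.2 CPM to 3.49, 4.97 and 3 CPM (log2 -3.55 ± 0.19). Mixl1, a homeobox factor of the primitive streak, stood at 151, 148 and 166 CPM at d3 and 17.0, 27.9 and 23.1 CPM at d4, and fell by 2.74 on the log2 scale. The falls also included the leucine zipper gene Lzts1 (log2 -3.60), the protocadherin Pcdh11x (-3.46), the carbonic anhydrase Car3 (-3.41), the sodium channel subunit Scn2b (-3.39), the prostaglandin synthase Ptgs1 (-3.03), the transcriptional corepressor Runx1t1 (-2.92), Pdgfrl (-2.87), the Wnt antagonist Dkk4 (-2.80), Nkx1-2 (-2.71), the ectonucleotidase Nt5e (-2.65) and the annexin Anxa3 (-2.64). In each of these 15 genes the d3 and d4 libraries did not overlap, which the rule for naming them required.

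The trunk Hox genes, those of groups 6 to 9, rose together. Of 12 listed genes 11 were tested, and all 11 were called higher, against 9.77% of all genes, with a median log2 fold change of 1.48 against 0.00 over all genes. All 11 calls held without d4 replicate 2, where the median was 1.58. Hoxc9 stood at 12.1, 10.6 and 7.2 CPM at d3 and at 74.1, 49.7 and 55.8 CPM at d4 (log2 2.58 ± 0.19, adjusted p = 1.21e-12). Hoxa9 stood at 6.28, 5.98 and 8.4 CPM and then at 46.6, 30.7 and 40.5 CPM (log2 2.47 ± 0.22, adjusted p = 9.38e-11). Hoxb9 went from 32.8, 29.5 and 32.0 CPM to 92.4, 82.6 and 92.2 CPM (log2 1.5 ± 0.15, adjusted p = 1.92e-09). In these 3 genes of group 9 all d4 libraries lay well above all d3 libraries. Hoxd9, at 2.90 to 4.80 CPM at d3 and 7.41 to 10.2 CPM at d4, rose by 1.16. Of group 8, Hoxd8 rose by 1.91 ± 0.42, Hoxc8 by 1.45 ± 0.16 and Hoxb8 by 0.74 ± 0.20, the smallest rise of the list. Of groups 6 and 7, the rises were 1.66 in Hoxc6, 1.48 in Hoxa7, 1.25 in Hoxb6 and 1.05 in Hoxb7. Hoxa6 did not pass the filter, with 12 counts over the d3 and 19 over the d4 libraries.

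The Wnt pathway acts on DNA through TCF and LEF factors, and the caudal CDX factors are known to act on Hox genes, so the 250 bases before the start of each gene were searched for short motifs of both. The search used the RefSeq promoters of build GRCm38.p6, of which 32851 were read, and both strands. Of the 12 listed trunk Hox genes 6 had a promoter in the table, and the TCF/LEF motif CTTTGAT, which 3.2% of all promoters hold, was found before 1 of them, Hoxd8. The TCF/LEF form CTTTGTT and the CDX motif TTTATGG were found before 0 of the 6. Before Hoxd8 the motif CTTTGAT stands in 2 copies, 153 and 143 bases before the start. They are shown in capitals in a window of 30 bases (chr2:74704451-74704480, plus strand) because Hoxd8 is the trunk Hox gene in which the motif was found:
Hoxd8: aaaaagcaggaCTTTGATtcgCTTTGATaa
A match is a description of the letters and was not tested as a binding site. Shares over the called genes are not given, since only 72.4% of the genes tested had a promoter in the table.

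**Figure D3:**
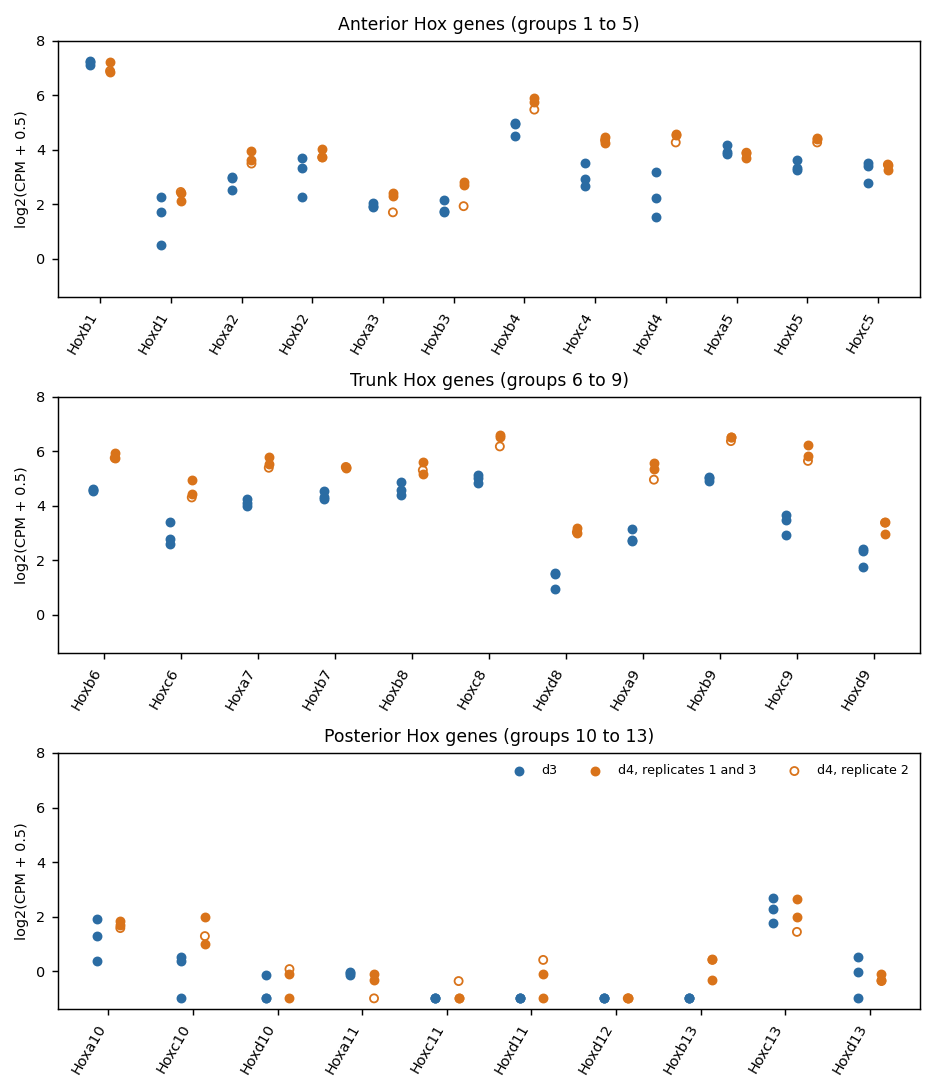
Level of tested Hox genes in each library, log2(CPM + 0.5), for groups 1 to 5, 6 to 9 and 10 to 13 (top to bottom). Blue points are the 3 d3 libraries, filled orange points the d4 libraries 1 and 3, and open orange points d4 library 2; in the middle panel the d4 points of all 11 genes lie above the d3 points, and in the lower panel they overlap or lie near 0 CPM.

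Of the anterior Hox genes, groups 1 to 5, 13 of 15 were tested, 5 rose and 1 fell (median log2 0.65), and the same numbers were called without d4 replicate 2. Hoxd4 rose most, from 8.69, 4.14 and 2.40 CPM to 22.7, 18.8 and 23.4 CPM (log2 2.12 ± 0.30, adjusted p = 2.31e-06), followed by Hoxc4 (1.31), Hoxb5 (0.97), Hoxb4 (0.90) and Hoxa2 (0.88). Hoxb1, at 137 to 153 CPM at d3 and 116 to 150 CPM at d4, did not pass the test (log2 -0.19, adjusted p = 0.206). Of the posterior Hox genes, groups 10 to 13, 10 of 12 were tested, and edgeR called 0, with or without d4 replicate 2. At an unadjusted edgeR p under 0.05, 3 were higher and 0 lower, and DESeq2 called 0. A gene could pass the filter through any of the 10 groups, such as d4G. The summed level of the list was 660 CPM in d4G wildtype cells, against 8.19 CPM at d3 and 10.9 CPM at d4. Hoxd12 had 0 counts at both stages, Hoxc11 0 and 1, Hoxd10 1 and 3 and Hoxa11 3 and 2 at d3 and d4. Genes with so few counts could hardly be called, so that the 0 calls say little about them. The posterior gene Hoxc10 stood at 0, 0.921 and 0.800 CPM and then at 3.49, 1.93 and 1.5 CPM (adjusted p = 0.111), and Hoxa10 at 0.800 to 3.22 CPM and then 2.49 to 3.05 CPM. Hoxb13 had no count at d3 and 0.872, 0.829 and 0.300 CPM at d4, at or under the limit of a count of 0. Levels this near the limit of a count of 0 leave small differences undetectable at this depth.

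Genes that time the axial program changed as well. Gdf11, the ligand that ends trunk formation, rose without being added, from 44.4, 49.3 and 54.4 CPM to 180, 208 and 313 CPM (log2 2.24 ± 0.21, adjusted p = 3.48e-10), and all d4 libraries lay well above all d3 libraries. Nr6a1 itself fell from 178, 186 and 167 CPM to 96.8, 99.5 and 96.7 CPM (log2 -0.86 ± 0.11, adjusted p = 4.48e-07). Hmga2, a chromatin protein that let-7 microRNAs hold down, rose from 107 to 123 CPM to 383 to 526 CPM (log2 1.90 ± 0.13), and the RNA-binding Igf2bp2 rose by 1.36. Lin28a, the inhibitor of let-7, fell by 0.33 (adjusted p = 0.00657), while Lin28b (log2 0.08) and Trim71 (log2 -0.22) did not pass the test. Of the 10 genes of this list, 3 rose and 2 fell.

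The NMP and caudal epiblast list split. Of 19 genes, all tested, 4 rose and 8 fell, the median was -0.36, and 4 rose and 8 fell also without d4 replicate 2. T fell from 318, 312 and 296 CPM to 90.2, 74.3 and 86.5 CPM (log2 -1.89 ± 0.10, adjusted p = 1.64e-16). Nkx1-2, a homeobox gene of the caudal epiblast, fell from 133, 134 and 120 CPM to 23.5, 16.9 and 19.8 CPM (log2 -2.71 ± 0.18, adjusted p = 1.63e-14). Sox2, the neural factor of NMPs, fell less, from 74.8, 82.4 and 78.4 CPM to 42.7, 60.2 and 38.7 CPM (log2 -0.72 ± 0.14, adjusted p = 0.000226), and by 0.94 without d4 replicate 2, in which it was highest. The libraries of the 2 stages did not overlap in any of these 3 genes. Wnt3a fell by 2.04, Hes3 by 1.57, Cdx1 by 0.53 and Sp5 by 0.47.

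Other genes of the same region did not follow T. The caudal factor Cdx4 rose slightly, from 99.9 to 106 CPM to 128 to 131 CPM (log2 0.33 ± 0.10, adjusted p = 0.0158), and Cdx2 stood at 90.3 to 96.4 CPM and then 88.5 to 107 CPM (adjusted p = 0.864). The ephrin receptor Epha5 rose by 1.22, the Wnt potentiator Rspo3 by 0.76 and Fgf17 by 0.63. Fgf8, the FGF of the tailbud, stood at 143, 122 and 127 CPM and then at 150, 121 and 138 CPM (log2 0.06 ± 0.12, adjusted p = 0.789). Cyp26a1, which breaks down retinoic acid, was at 18 to 20 CPM and then 23.5 to 27.3 CPM, separate values that did not pass the test (adjusted p = 0.131).

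Genes of the presomitic and paraxial mesoderm rose. Of 22 listed genes 15 were tested, 11 were called higher and 0 lower by edgeR (9.77% and 11.3% of all genes), and the median was 1.77. None of the 15 was lower by DESeq2 or at an unadjusted p under 0.05. Without d4 replicate 2 the count was 11 higher and 1 lower. Tbx6, the T-box factor that commits cells to the mesoderm, rose from 15.4, 14.3 and 9.20 CPM to 94.2, 89.0 and 104 CPM (log2 2.90 ± 0.16, adjusted p = 2.32e-16). Dll1, a Notch ligand, rose from 26.1, 25.3 and 16.8 CPM to 134, 105 and 135 CPM (log2 2.46 ± 0.17, adjusted p = 4.26e-14). Hes7, the oscillating repressor of the segmentation clock, rose from 36.7, 26.2 and 30 CPM to 171, 121 and 163 CPM (log2 2.29 ± 0.14, adjusted p = 8.13e-15). In each of the 3 genes all d4 libraries lay well above all d3 libraries. The clock gene Lfng, a modifier of Notch, rose by 2.45, the Notch ligand Dll3 by 1.07 and the coactivator Cited1 by 1.77.

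Factors of more mature paraxial mesoderm rose from little or nothing. Foxc1 went from 1.45, 0.921 and 4.80 CPM to 24.8, 30.9 and 31.2 CPM (log2 3.52 ± 0.32, adjusted p = 1.59e-10). Foxc2 had no count in any d3 library and 9.15, 6.63 and 9.61 CPM at d4, at least 18.7-fold higher than the 3 counts over the d3 group that a count of 0 allows. Meox1, a homeobox gene of somites, also had no count at d3 and stood at 5.23, 3.32 and 3.60 CPM at d4, at least 8.75-fold higher by the same limit. Pax3 rose by 1.21 and the growth factor receptor Pdgfra by 0.73. The segment boundary genes Mesp1 and Mesp2 were under 2 CPM in all 6 libraries (adjusted p = 0.688 and 0.666), and the somite genes Ripply1, Ripply2, Meox2, Pax1, Uncx and Tbx18 did not pass the filter. Tcf15, a factor of dermomyotome, stood at 5.31, 5.06 and 4 CPM and then 0.872, 5.25 and 1.80 CPM, and was called lower only without d4 replicate 2 (log2 -1.70, adjusted p = 0.0266). Aldh1a2, which makes retinoic acid in somites, was at 6.80 to 11.1 CPM and then 11.3 to 12.9 CPM (adjusted p = 0.301).

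Of the 11 called genes of this list 8 had a promoter, 11 promoters in all, and 0 of these held either TCF/LEF form and 1 the CDX motif. The windows of that gene, Hes7, and of Msgn1, a listed gene that did not pass the filter, are shown as examples. Mesp1, tested but not called, holds CTTTGAT 31 bases before its start. Uncx, which did not pass the filter, holds TTTATGG 156 bases before its start. Among the other motifs searched, the SMAD motif stood in 3 of the 11 promoters (17.1% of all promoters). The Myc E-box stood in 1 (6.02% of all promoters), and the NR6A1, GATA and hypoxia motifs stood in 0. Before Hes7 the CDX motif TTTATGG, held by 2.43% of all promoters, stands 223 bases before the start (chr11:69120219-69120248, plus strand). Before Msgn1, a mesoderm factor that acts with Tbx6, the TCF/LEF motif CTTTGAT stands on the opposite strand, as ATCAAAG, 203 bases before the start (chr12:11209133-11209162, minus strand):
Hes7: tattatacagcTTTATGGtccttaaaccag
Msgn1: agatgctaattATCAAAGaggggaaagtga
Msgn1 itself did not pass the filter, with 6 counts over the d3 and 26 over the d4 libraries, and its rise could not be tested here.

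**Figure D4:**
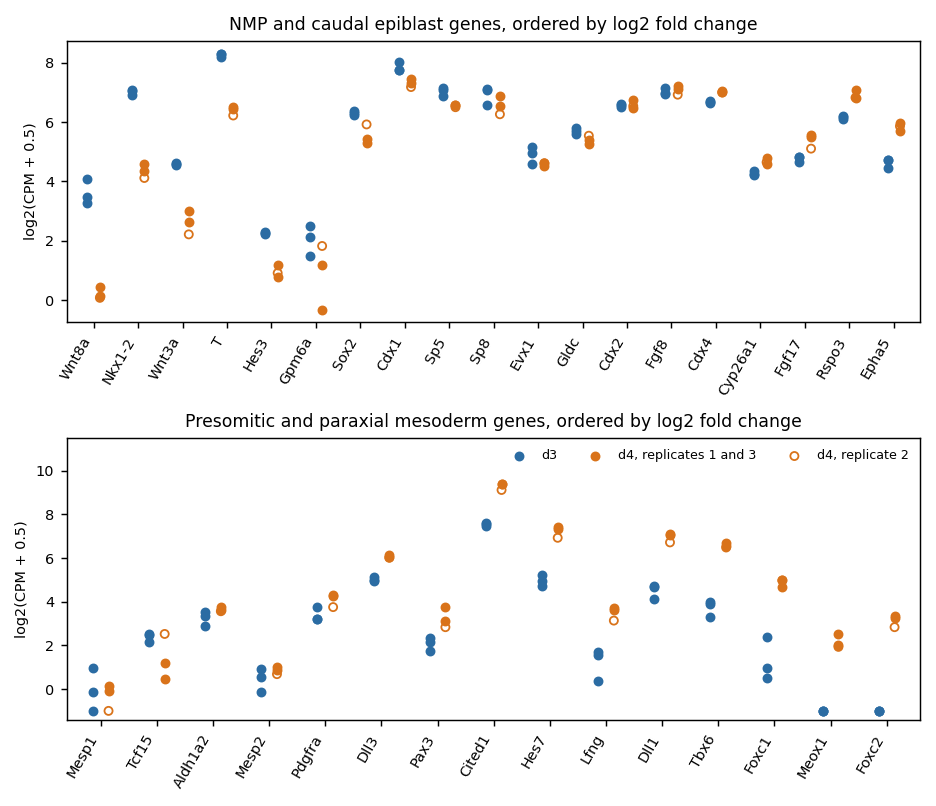
Level of each tested gene of the NMP and caudal epiblast list (top) and of the presomitic and paraxial mesoderm list (bottom) in each library, log2(CPM + 0.5), with genes ordered by log2 fold change. Blue points are d3, filled orange points d4 libraries 1 and 3, and open orange points d4 library 2; T and Nkx1-2 drop and Tbx6, Dll1 and Hes7 rise in all 3 d4 libraries, library 2 included.

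Of 16 tested genes of the Notch pathway and clock, 7 rose and 1 fell (median 0.75), against 9.77% and 11.3% of all genes. Beside Dll1, Dll3, Hes7 and Lfng, the rises were in the targets Hes5 and Hey1 and in the ligand Jag1. Hes5 went from 2.90, 3.68 and 5.20 CPM to 45.3, 36.2 and 43.8 CPM (log2 3.36 ± 0.27, adjusted p = 4.71e-12), and Hey1 from 2.41, 0.921 and 0.800 CPM to 11.3, 12.2 and 13.5 CPM (log2 3.17 ± 0.44, adjusted p = 1.01e-06). In both targets the d3 and d4 libraries were far apart. Hes1 did not follow, at 186 to 207 CPM and then 175 to 191 CPM (log2 -0.09, adjusted p = 0.554). The ligand Jag2 fell by 1.13, a call that was lost without d4 replicate 2 (adjusted p = 0.0509), and none of the 4 receptors Notch1 to Notch4 passed the test (adjusted p of 0.102, 0.381, 0.278 and 0.940).

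Genes of the epiblast and pluripotency list fell, and the list's median moved more with d4 replicate 2 than that of any other list with a call. Of 25 genes, 4 were called higher and 14 lower (median -0.62), and without that library 0 were higher by edgeR and 19 lower (median -1.12). Pou5f1 (Oct4) fell from 7.72, 7.83 and 5.60 CPM to 1.31, 4.14 and 0.901 CPM (log2 -1.61 ± 0.40, adjusted p = 0.00291), and by 2.64 without replicate 2. Nanog fell from 13.2 to 14 CPM to 3.92 to 9.61 CPM, by 0.84, and Dppa5a from 146 to 168 CPM to 59.1 to 77.2 CPM, by 1.25. Tdh, the threonine dehydrogenase of mouse stem cells, fell by 1.18, Esrrb by 1.41, Zfp42 by 1.15 and Sall4 by 0.46. The d4 libraries lay below the d3 libraries in each of these genes.

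The 4 genes of that list called higher were Fgf5, Otx2, Pou3f1 and Fgf4, and 0 of them were called higher without d4 replicate 2. Otx2, an anterior and epiblast factor, stood at 1.45, 0.460 and 0.800 CPM at d3 and at 0.436, 12.7 and 0 CPM at d4, and Fgf5 at 0, 8.84 and 0.300 CPM at d4. Dnmt3b had a log2 fold change of 0.78 (adjusted p = 0.113) with and of -0.89 (adjusted p = 5.00e-09) without that library. Utf1 went from 0.01 to -1.86, and L1td1, which encodes an RNA-binding protein of stem cells, from 0.43 to -0.73. Fgf4, at 11.1, 8.29 and 12.4 CPM and then 12.6, 21.3 and 15 CPM, was lost as a call (adjusted p = 0.248) but kept its sign.

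The Nodal pathway fell with the epiblast genes. Nodal, the ligand, fell from 7.24, 10.1 and 9.60 CPM to 1.31, 1.38 and 0.901 CPM (log2 -2.87 ± 0.42, adjusted p = 2.29e-06), and its antagonists Lefty1 and Lefty2 had log2 fold changes of -3.55 and -1.79. The related ligand Gdf3 fell by 1.55 and the Smad corepressor Skil by 0.72. Of 18 tested genes of the activin and Gdf list, which shares Gdf11 and the Nodal genes with the lists above, 1 rose, Gdf11, and 6 fell. The receptor genes Acvr1b, Acvr2a, Acvr2b, Tgfbr1 and Tgfbr3 and the signal transducers Smad2, Smad3 and Smad4 did not pass the test.

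Wnt ligands and Wnt targets moved differently. Of 9 tested ligands 2 rose and 6 fell (median -1.64). Wnt6 fell from 62.8, 53.4 and 46.8 CPM to 10.9, 8.01 and 9.01 CPM (log2 -2.56 ± 0.17, adjusted p = 3.14e-14), and Wnt3a from 23.7, 24.4 and 23.2 CPM to 5.67, 4.14 and 7.50 CPM (log2 -2.04 ± 0.27, adjusted p = 3.55e-07). Wnt10a fell by 1.74, Wnt3 by 1.64 and Wnt5b by 0.87. Wnt5a, a ligand that acts mostly outside the beta-catenin pathway, rose from 15.4, 27.2 and 28.0 CPM to 70.6, 43.9 and 59.1 CPM (log2 1.26 ± 0.19), and Wnt8b rose by 2.06. The sign of each of the 8 called ligands was the same without d4 replicate 2, and all 8 were still called.

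Of 16 tested Wnt targets and feedback genes, 7 rose and 3 fell (median 0.32), although CHIR was present at both stages. The feedback inhibitors Nkd1 and Nkd2 rose, Nkd1 from 55.0, 47.9 and 47.2 CPM to 130, 125 and 148 CPM (log2 1.43 ± 0.13, adjusted p = 1.08e-10). The Wnt deacylase Notum rose by 1.08, the Wnt-binding Sfrp1 by 1.02, the transcription factor Lef1 by 0.87, the receptor Tnfrsf19 by 0.83 and the antagonist Dkk1 by 0.53. Axin2, the widely used Wnt target, was at 152 to 180 CPM and then 137 to 156 CPM (log2 -0.16, adjusted p = 0.289). Dkk4 and Sp5 fell, and so did the ubiquitin ligase Znrf3 (log2 -0.42), which was lost as a call without d4 replicate 2 (adjusted p = 0.0532). Among 14 tested receptors, Fzd2 (log2 1.24) and Fzd7 (1.23) rose and Fzd6 (-1.20) and Ptk7 (-0.69) fell. The windows of Sp5 and Dkk1 are shown as examples of both forms of the motif. Sp5, which fell, holds both forms, and Tnfrsf19, which rose, holds CTTTGAT 202 bases before its start. Sp5 holds the form CTTTGAT 104 bases before its start (chr2:70474808-70474837, plus strand), and Dkk1 the form CTTTGTT, found in 5.03% of all promoters, 98 bases before its start (chr19:30549576-30549605, minus strand):
Sp5: ggcaaggccccCTTTGATcaggaaaatcca
Dkk1: tcccatcccggCTTTGTTgtcttccctgag

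Of 9 tested FGF ligands 7 rose and 0 fell by edgeR (median 1.07), with 0 lower also by DESeq2 and at an unadjusted p under 0.05. Beside Fgf9, Fgf3 rose from 6.28, 6.91 and 8 CPM to 35.7, 36.7 and 36.6 CPM (log2 2.35 ± 0.20, adjusted p = 3.30e-11), and Fgf15, Fgf13 and Fgf17 by 1.07, 0.98 and 0.63. The rises of Fgf4 and Fgf5 were lost without d4 replicate 2, which left 5. The genes by which cells damp FGF and ERK signals did not rise with the ligands, as 0 of 13 were higher and 5 lower by edgeR (median -0.24), with 2 higher at an unadjusted p under 0.05 and 0 by DESeq2. The ERK phosphatases Dusp4 and Dusp6 fell by 0.73 and 0.69, the FGF receptor inhibitor Il17rd by 0.71, Spred3 by 1.79 and the FGF-responsive factor Etv4 by 0.45. Dusp6, at 132, 128 and 150 CPM and then 56.7, 82.1 and 112 CPM, and Etv4 were lost without d4 replicate 2 (adjusted p = 0.0858 and 0.0861). Of the receptors, Fgfr1 fell from 59.6 to 71.9 CPM to 41.4 to 45.3 CPM (log2 -0.67 ± 0.14), and Fgfr2 rose from under 1.5 CPM in each d3 library to 3.30 to 4.80 CPM (log2 2.58 ± 0.68, adjusted p = 0.00539).

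Some targets of BMP rose, namely Id1, Id2, Id3 and Msx1. Id3, an inhibitor of bHLH factors, rose from 61.8, 53.9 and 52.0 CPM to 200, 177 and 194 CPM (log2 1.77 ± 0.15, adjusted p = 9.04e-12). Id2 rose by 1.55, Id1 by 0.84 and the homeobox target Msx1 by 2.02, from 9.60 to 14 CPM to 43.4 to 58.8 CPM. Bmp7 fell by 0.72, and Bmp2 and Bmp4, each under 7 CPM in all 6 libraries, did not pass the test (adjusted p = 0.945 and 0.577). The targets Id4 (log2 -1.12), Msx2 (0.35), Smad6 (0.45), Smad7 (0.20) and Bambi (-0.03) did not pass the test either. In all, 4 of 12 tested genes of the BMP list rose and 1 fell. Of 14 genes of retinoid synthesis and response, 4 rose and 1 fell. The retinoic acid binding proteins Crabp1 and Crabp2 rose, Crabp1 from 246, 234 and 228 CPM to 728, 578 and 743 CPM (log2 1.53 ± 0.09, adjusted p = 7.72e-16), and the retinaldehyde reductase Dhrs3 rose by 0.50. The receptor Rxrg fell by 1.93.

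Lists of markers of other cell types were counted in the same way. In the neural list 18 of 27 genes were tested, 7 rose and 4 fell (median 0.42), and 5 rose and 4 fell without d4 replicate 2. Zic1 rose by 1.47, the adhesion molecule Ncam1 by 1.40 and Irx5 by 1.36, and the rises of Pax6 and Nkx6-1, both under 6 CPM at d4, were lost without that library. The neural stem cell markers Nes (log2 -1.23) and Fabp7 (-1.68), the neuronal tubulin Tubb3 (-1.11) and Stmn2 (-2.02) fell. Stmn2 stood at 163, 153 and 165 CPM and then at 30.5, 55.8 and 30 CPM, with separate values in the 2 stages. The neural factors Sox1 and Sox3 were at or under 5.25 CPM in all 6 libraries, and the neurogenic Neurog1 and Neurog2 did not pass the filter.

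Of the endothelial and blood list, 7 of 20 genes were tested and 5 rose (median 2.75). Lmo2, a factor of blood progenitors, rose from 16.9, 24.4 and 17.6 CPM to 107, 116 and 170 CPM (log2 2.75 ± 0.20, adjusted p = 2.44e-13). The embryonic globins rose, Hbb-bh1 from 0.921 to 1.45 CPM to 11.3, 15.2 and 20.7 CPM, Hbb-y from 0.921 to 2.80 CPM to 13.5, 19.9 and 23.4 CPM, and Hba-x from no count to 2.62, 5.80 and 7.80 CPM, at least 12.9-fold higher than 3 counts over the d3 group. Etv2 rose by 0.90 with and not without d4 replicate 2 (adjusted p = 0.303). The defining markers of these cells stayed near 0, with 2 and 3 counts of Kdr, 1 and 3 of Tal1, 5 and 5 of Cdh5 and 1 and 1 of Gata1 over the d3 and the d4 libraries. The summed level of the list was 72.0 to 88.3 CPM at d3 and 187 to 270 CPM at d4, of which Lmo2 made up 107 to 170 CPM.

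Among genes of the lateral and intermediate mesoderm, 1 of 8 tested was called, Foxf1, at 0.483, 0 and 0.800 CPM and then 1.74, 7.74 and 11.1 CPM (log2 3.89 ± 0.92, adjusted p = 0.00227), where the pooled counts, 3 of them at d3, gave a ratio of 16.8 and counting error alone a range from 5.51 to 83.3. Gata4, Gata6, Wt1 and Twist1 did not pass the test. In the endoderm list 0 of 9 rose by edgeR or DESeq2 and 3 were higher at an unadjusted p under 0.05. Without d4 replicate 2, 1 was called higher, Spink1 (log2 0.61, adjusted p = 0.00964). The list held 2 falls, Trh (log2 -2.59) and Apoa2 (-0.94), while Sox17, at 19.8 to 21.6 CPM and then 26.2 to 33.3 CPM, did not pass the test (adjusted p = 0.106). The summed level of the endoderm list was 217 to 231 CPM at d3 and 155 to 219 CPM at d4. Of 6 neural crest genes 1 was called, Ets1, which fell by 1.14, and without d4 replicate 2 Erbb3 was called lower as well (log2 -2.15, adjusted p = 0.0231). Fibroblast genes, which could come from feeder cells, fell in 3 of 6 cases (Col1a1, Col1a2 and Dcn) and rose in 1, Thy1, a call lost without d4 replicate 2 (adjusted p = 0.0724), with a summed level of 74.6 to 79.2 CPM at d3 and 44.5 to 52.5 CPM at d4.

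Some epithelial genes fell and some mesenchymal genes rose. Of 13 tested cadherins and regulators of the change from epithelium to mesenchyme 4 rose and 5 fell, with and without d4 replicate 2. Cdh1 (E-cadherin) fell from 103, 91.6 and 88.0 CPM to 22.2, 57.2 and 22.2 CPM (log2 -1.43 ± 0.18, adjusted p = 2.62e-07), and by 2.07 without d4 replicate 2. The epithelial adhesion molecule Epcam fell from 211, 232 and 254 CPM to 67.1, 157 and 61.5 CPM, and the splicing factor Esrp1 by 1.39. In both Cdh1 and Epcam d4 replicate 2 lay between the other d4 libraries and d3. The repressors Snai1 and Zeb1 rose by 1.18 and 1.05, and the matrix protein fibronectin (Fn1) by 1.15, from 75.6 to 88.8 CPM to 167 to 195 CPM. Vim (vimentin), often read as mesenchymal, fell from 137 to 152 CPM to 74.9 to 80.6 CPM (log2 -0.87 ± 0.10). Of 12 tested claudins and keratins 1 rose and 5 fell (6 without d4 replicate 2), the 5 being Cldn4 (log2 -1.93), Cldn3 (-2.47), Krt19 (-1.22), Krt8 (-0.85) and Krt18 (-0.62). The basement membrane laminins Lama5 (-0.94) and Lamb1 (-0.41) fell.

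Guidance and migration signals changed in both directions. Of 44 tested axon guidance genes 7 rose and 11 fell, and 7 rose and 9 fell without d4 replicate 2. The semaphorin Sema3a rose from 4.83, 4.6 and 10 CPM to 33.6, 33.4 and 29.7 CPM (log2 2.27 ± 0.27, adjusted p = 8.35e-08), Sema3c by 2.32, the semaphorin receptors Plxna2 and Nrp2 by 1.76 and 1.32 and the ephrin receptor Epha4 by 1.19. Epha2 fell by 1.91, Ntn1 (netrin) by 1.38, Sema3e by 1.22 and Sema6a by 1.08. The chemokine receptor Cxcr4 and its ligand Cxcl12 rose by 2.99 and 2.20, Cxcr4 from 2.90, 1.84 and 5.60 CPM to 19.6, 26.2 and 38.1 CPM, while the peptide Apela, its relative Apln and their receptor Aplnr fell by 1.71, 1.94 and 1.21.

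Targets of p53 fell, as 0 of 20 rose and 11 were lower by edgeR (median -0.37), 8 of them also without d4 replicate 2, and 0 were higher by DESeq2 or at an unadjusted p under 0.05. Trp53inp1 fell from 131, 151 and 158 CPM to 59.3, 53 and 58.2 CPM (log2 -1.37 ± 0.11, adjusted p = 1.22e-11), the death receptor Fas by 1.62, Perp by 0.85, Pmaip1 (Noxa) by 0.72 and the cell cycle inhibitor Cdkn1a (p21) by 0.54. Both main Myc genes rose, Myc from 9.17, 10.6 and 6 CPM to 30.5, 27.4 and 21.9 CPM (log2 1.63 ± 0.23, adjusted p = 1.94e-06) and Mycn by 1.10. The immediate early genes Fos and Egr1 rose by 3.33 and 2.52, Egr1 from 6.91 to 9.17 CPM to 45.6 to 46.6 CPM, and were the 2 of 12 such genes that were called.

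Within glycolysis the genes split. Of 35 tested genes of glycolysis and hypoxia 9 rose and 7 fell (median 0.20), and 11 rose and 8 fell without d4 replicate 2. Ldha, the lactate dehydrogenase subunit that favours lactate, rose from 631, 607 and 596 CPM to 1493, 1306 and 1377 CPM (log2 1.19 ± 0.09, adjusted p = 1.09e-12), while Ldhb, its counterpart, fell from 334, 331 and 310 CPM to 109, 114 and 101 CPM (log2 -1.59 ± 0.08, adjusted p = 6.74e-17). Neither gene had overlapping values. The triose isomerase Tpi1, the lactate transporter Slc16a3 and Vegfa rose by 0.80, 1.13 and 1.5, and the glucose transporters Slc2a1 and Slc2a3, the kinase Pdk1 and the stress gene Ddit4 fell by 0.57, 1.18, 1.12 and 0.99. Of 30 genes of sterol and fatty acid synthesis 6 rose and 1 fell (median 0.05), a fall that was lost without d4 replicate 2. The share called was 23.3%, near the 21.1% of all genes.

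Cell cycle and housekeeping genes mostly moved little in size. Of 39 genes of G1 and S phase 4 rose and 6 fell (median -0.05), and of 50 genes of G2 and M phase 7 rose and 4 fell (median 0.02), shares near those of all genes. Without d4 replicate 2 these counts were 3 and 6 for G1 and S and 7 and 3 for G2 and M. The cyclin Ccnd2 rose by 0.52 and Ccnd1 did not pass the test (adjusted p = 0.144). Of 88 cytosolic ribosomal protein genes 11 were higher and 0 lower by edgeR, with 0 lower by DESeq2 too (1 lower at an unadjusted p under 0.05), with a median of 0.12, and of 75 mitochondrial ribosomal protein genes 10 were higher and 1 lower (median 0.08). Without d4 replicate 2, 12 cytosolic genes were higher, and 9 mitochondrial genes were higher and 1 lower. Of 75 nuclear genes of oxidative phosphorylation 4 rose and 4 fell (median 0.06), or 5 and 4 without d4 replicate 2, and of 8 tested genes of the mitochondrial genome 4 rose (median 0.29). The shares called in either direction were 12.5% (cytosolic ribosomal), 14.7% (mitochondrial ribosomal) and 10.7% (nuclear oxidative phosphorylation), below the 21.1% of all genes. All cytosolic ribosomal calls were rises, however, and their 12.5% lay above the 9.77% of all genes called higher. The 4 of 8 genes of the mitochondrial genome also exceeded that share. Changes were positive in 79 of 88 cytosolic and 57 of 75 mitochondrial ribosomal genes. They were positive in 44 of 75 nuclear oxidative phosphorylation genes and in all 8 of the mitochondrial genome. Of 10 genes of the integrated stress response 4 rose and 2 fell (3 without d4 replicate 2), Atf4 and the serine synthesis gene Psat1 by 0.68 and 0.64 upward and Ddit3 (Chop) by 0.89 downward.

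Imprinted genes and chromatin regulators changed one by one. Of 25 tested imprinted genes 7 rose and 4 fell (median 0.03), 3 of the falls also without d4 replicate 2. H19 rose from 12.6, 12.0 and 10 CPM to 114, 102 and 114 CPM (log2 3.26 ± 0.16, adjusted p = 5.16e-18), and its neighbour Igf2, without a count at d3, stood at 5.67, 1.11 and 3.90 CPM, at least 7.29-fold higher than 3 counts over the d3 group. Phlda2 rose from 103, 122 and 104 CPM to 438, 390 and 446 CPM (log2 1.95 ± 0.10, adjusted p = 6.74e-17), and Peg12, Ndn, Nnat and Grb10 by 1.24, 1.07, 0.93 and 0.53. Peg10 fell by 1.70 and Peg3 by 0.51. Of 25 polycomb genes 2 rose, Bmi1 by 1.36 and Cbx2 by 0.63, and 3 fell, shares near those of all genes (9.77% and 11.3%). Without d4 replicate 2 the falls were 5, with Phc1 (log2 -0.72, adjusted p = 4.56e-05) and Phc3 (log2 -1.38, adjusted p = 0.0402) added. Of 11 genes of DNA methylation 0 were called by edgeR or DESeq2 with d4 replicate 2 (3 at an unadjusted p under 0.05, 1 higher and 2 lower) and 2 fell without it, Dnmt3b and the oxidase Tet1 (log2 -0.68, adjusted p = 0.00240).

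**Figure D5:**
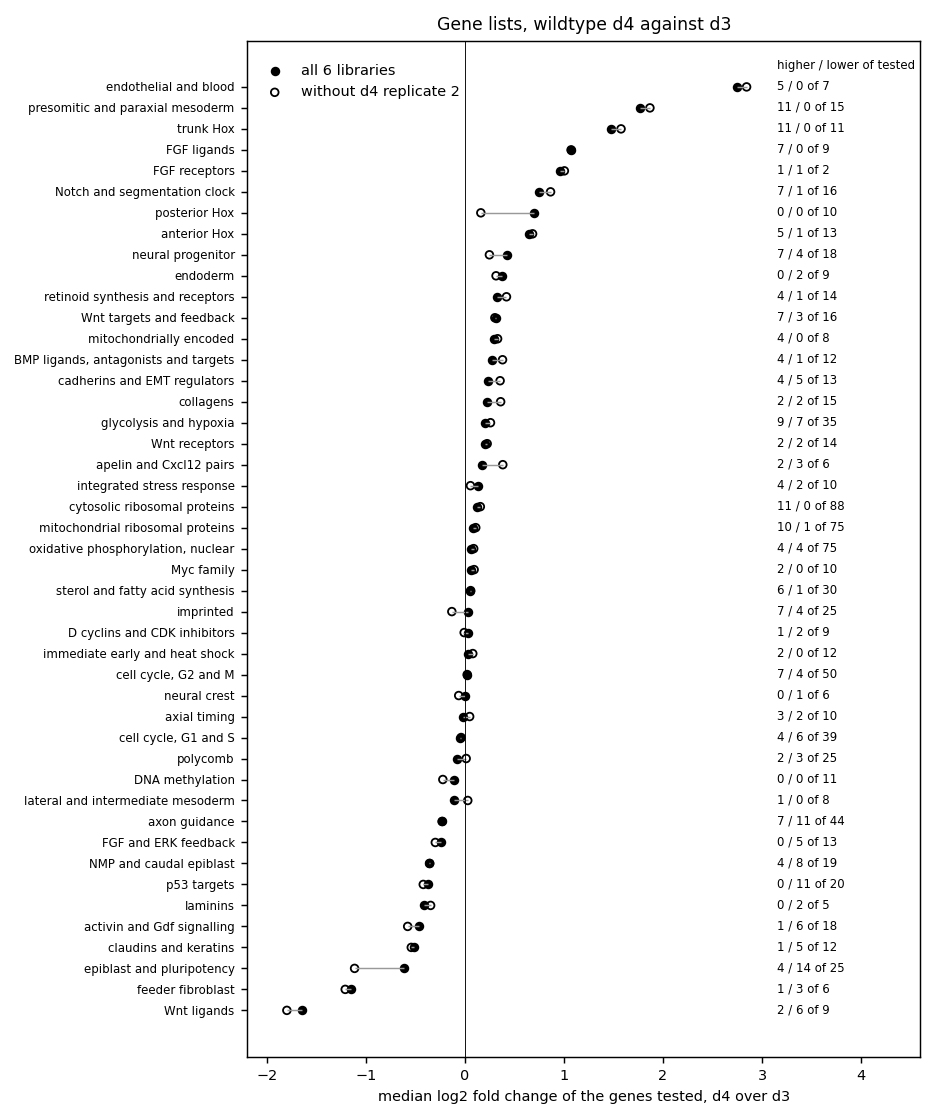
Median log2 fold change, d4 over d3, of the tested genes of each list, with all 6 libraries (filled) and without d4 replicate 2 (open), and the number called higher and lower of those tested (right). Presomitic mesoderm (1.77) and trunk Hox genes (1.48) lie near the top and Wnt ligands (-1.64) at the bottom; the epiblast list moves most on removing that library among the lists with a call, from -0.62 to -1.12.

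The same 24 h were compared with those of Nr6a1-/- cells, in a test of the difference between the 2 changes. It contrasted the 6 wildtype and 6 Nr6a1-/- libraries of d3 and d4 within the model fitted to all 30 libraries. Nr6a1 reads stood at 287 ± 29.2 CPM in d3 and 223 ± 33.0 CPM in d4 Nr6a1-/- cells, and since reads come from 3′ ends and need not cover the deleted part, they do not check the label. The change differed in 695 genes, 5.72% of those tested. Of the 1187 wildtype rises, 608 were also called higher and 33 lower in Nr6a1-/- cells, and 171 differed, 131 of them with a smaller rise in Nr6a1-/-. Of the 1373 wildtype falls, 691 were also lower and 27 higher in Nr6a1-/- cells, and 168 differed, 137 of them with a smaller fall. Both sets of genes were chosen by their wildtype change, which also enters the difference. The choice itself thus favours a smaller change in Nr6a1-/- cells. Over all genes, 361 of the differences were upward and 334 downward. Leaving out a d4 library moved the 695 to 1157 (Nr6a1-/- replicate 1), 443 (Nr6a1-/- replicate 3) or 535 (wildtype replicate 2).

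Of the 15 tested presomitic and paraxial genes 3 differed, Cited1, Mesp1 and Aldh1a2, of which Mesp1 was lost without d4 wildtype replicate 2 (adjusted p = 0.0588). T, Tbx6, Foxc1 and Dll1 changed by -1.91, 2.89, 3.48 and 2.72 in Nr6a1-/- cells. The differences from wildtype were -0.02 ± 0.14, -0.01 ± 0.16, -0.03 ± 0.46 and 0.26 ± 0.23 (approximate SE as above, adjusted p from 0.602 to 0.994). Other genes of the NMP and Hox lists did differ. Hoxb9, which rose by 1.5 in wildtype cells, was at 35.8 ± 6.69 and 33.8 ± 2.70 CPM in Nr6a1-/- cells (difference -1.58 ± 0.23, adjusted p = 1.27e-05), and Hoxb8 differed by -1.12, while the other 9 tested trunk Hox genes were not called. Nkx1-2 changed by -1.03 in Nr6a1-/- cells and -2.71 in wildtype cells (difference 1.68 ± 0.23, adjusted p = 4.72e-06), and the falls of Wnt8a, Wnt3a, Wnt6, Mixl1, Lzts1 and Fst were smaller as well.

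The 5 largest differences upward by the rule for named genes were in the ammonium transporter Rhbg (8.41), the ligand Wnt7a (6.72), the adhesion molecules L1cam (5.25) and Ntm (4.67) and the homeobox gene Meis1 (4.36). Of the groups compared, Rhbg, Wnt7a, L1cam and Ntm reached the 10 CPM of the rule only in d4 Nr6a1-/- cells. The rule could thus return these genes only as upward differences. Rhbg stood at 0.742 ± 0.258 and 0 CPM in wildtype cells and at 0.677 ± 0.265 and 16.0 ± 2.63 CPM in Nr6a1-/- cells, d3 before d4, and was thus under the limit of a count of 0 in wildtype cells, where its fitted fold change depends on the prior count. The same holds for Wnt7a, at 0.294 and 0.276 CPM in d3 and d4 wildtype cells. Its difference was 9.53 without d4 wildtype replicate 2. L1cam was at 0.576 ± 0.501 CPM in d4 wildtype cells, so that the sizes of these 3 differences are poorly measured. The 5 largest downward were in Sema3c (-4.01), Pim2 (-3.78), L1td1 (-3.13), the Wnt antagonist Dkk1 (-2.98) and H19 (-2.97). Dkk1 rose by 0.53 in wildtype cells and fell from 23.8 ± 2.17 to 4.35 ± 0.931 CPM in Nr6a1-/- cells (adjusted p = 7.32e-10), and H19 rose in wildtype cells and was at 1.34 ± 0.634 and 1.61 ± 0.591 CPM in Nr6a1-/- cells. Pim2 and L1td1 are among the d2-like transcripts that were high in d4 wildtype replicate 2, and without that library their differences were -1.56 and -1.97, smaller in size than those of Dkk1 (-3.08) and H19 (-3.04).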

How the data were processed

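RNA was measured by poly(A)-primed 3′ sequencing in 30 libraries, of which the 3 d3 and 3 d4 wildtype libraries were compared. The authors deposited a table of raw counts per gene for all 30 libraries, in 54134 rows. The submitters' processing notes name STAR, edgeR and the build mm10. Versions, the counting tool, the annotation, the use of strand and whether reads sharing a molecular identifier were collapsed are not given in the sources used here. Counts of 3′ reads measure transcript ends. Tables of genotype differences per stage (fold changes and p-values of the authors' own tests) were not used, and 0 columns of sample values were left unmatched.

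Counts were analysed with edgeR 4.0.16 in R 4.3.3. Genes with over 10 counts and over 2 CPM in 2 libraries of 1 group were kept (12149). TMM factors and a quasi-likelihood model of the 10 groups (20 residual degrees of freedom) were fitted to all 30 libraries, and d4 was tested against d3 within wildtype, with Benjamini-Hochberg adjustment and a threshold of 0.05. The difference between genotypes was a contrast in the same model. Depth was 2081902 to 3688197 counts in the compared libraries and 1570714 to 3688197 in all. Intervals and limits cover counting error only. Alternatives were RLE factors, no factors, no filter, only the compared libraries, DESeq2 1.42.0, a replicate block, thinning and leaving out each library.

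The libraries, gene lists and tests were chosen with earlier results of these data known. Genes were named if they belonged to a list, if a check used them, or if they were among the 15 largest rises and falls called, whose mean reached 10 CPM at d3 or d4, with separate values in both groups and the same call without d4 replicate 2, gene models without a name left out. The 5 largest differences between genotypes in each direction had a mean of 10 CPM or more in 1 of the 4 groups and differed in the same direction without d4 wildtype replicate 2, with no demand for separate values, which are not defined for a difference of changes. Pim2, Utf1, L1td1 and Dnmt3b were also named in the account of d4 replicate 2, after their values were seen. Coordinates of genes are from GENCODE vM21 (GRCm38) and promoter sequences from RefSeq (GRCm38.p6). Results for a few genes are not reported here, and lists are counted with all their members.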

Additional observations from a re-analysis of the deposited data

Results flagged for a closer look

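The change from d3 to d4 was set beside that of Nr6a1-/- cells for each of the 262 genes named above and for the genes with the largest differences, and it differed between the genotypes in 72 of them at an adjusted p under 0.05 (edgeR's quasi-likelihood test of the difference itself, Benjamini-Hochberg adjustment over all genes). Over all genes tested the share was 5.72%. Since the genes with the largest differences were chosen by this same test, the 72 do not measure how often named genes differed. In 42 of the 72 the value was higher and in 30 lower in Nr6a1-/- cells. Without d4 wildtype replicate 2, 59 of the 72 were called in the same direction and 13 were not called. Beside Dnmt3b, Utf1, Phc1 and Epcam, given below, these were Mesp1, Nt5e, Ptk7, Dusp6, Fgfr1, Smad3, Col1a1, Ldhb and Slc2a3. In the latter genes the adjusted p without that library ran from 0.0506 (Smad3) to 0.155 (Nt5e). Values below are log2 differences, the change in Nr6a1-/- less that in wildtype cells. Nr6a1-/- cells came from 1 clone, so that clone and genotype cannot be told apart.

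Of the 8 called falls of the NMP and caudal epiblast list 3 differed, Nkx1-2, Wnt3a and Wnt8a. Among genes that fell in wildtype cells the differences were 3.39 in Wnt8a, 1.93 in Mixl1, 1.68 in Nkx1-2, 1.56 in Wnt3a, 2.39 in Wnt6, 1.93 in Fst, 3.27 in Lzts1, 1.55 in Car3, 2.02 in Scn2b and 1.21 in Nt5e. They were -1.37 in Cdx4 and -2.27 in Epha5, which rose in wildtype cells, and 1.25 in Cyp26a1. Of the Hox genes the differences were -1.58 in Hoxb9 and -1.12 in Hoxb8. Mesodermal and clock genes differed by -0.67 (Cited1), 5.73 (Mesp1), 3.61 (Aldh1a2), 1.93 (Hes5) and -1.95 (Etv2).

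Genes of retinoid binding and response differed by 2.12 (Crabp1) and 2.39 (Dhrs3), and neural genes by 3.34 (Fabp7), 1.77 (Ncam1) and 1.08 (Nes). Wnt genes differed by -2.98 (Dkk1), -0.80 (Nkd1), 0.75 (Znrf3) and 0.57 (Ptk7). Genes of FGF signalling differed by 1.97 (Fgf4), 1.89 (Fgf15), 1.13 (Dusp6) and 0.62 (Fgfr1), and genes of the BMP and activin pathways by -1.65 (Id3), 2.36 (Id2), -1.66 (Tgfbr3) and 1.02 (Smad3). In wildtype cells Id3 and Id2 rose by like amounts, 1.77 and 1.55.

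Epiblast genes differed by -1.74 (Tdh), -1.87 (Dnmt3b), -2.31 (Utf1), -3.13 (L1td1) and -3.78 (Pim2), of which the last 4 are among the d2-like transcripts that were high in d4 wildtype replicate 2. Without that library these 4 were -0.22, -0.44, -1.97 and -1.56, and the first and second were no longer called (adjusted p = 0.387 and 0.481). The polycomb gene Phc1 differed by -0.70, and by -0.31 without that library (adjusted p = 0.343). Genes of adhesion, matrix and guidance differed by -0.91 (Epcam, -0.33 without d4 wildtype replicate 2, adjusted p = 0.344), -0.73 (Fn1), 0.82 (Vim), -0.93 (Krt8), -0.56 (Krt18), 1.69 (Col1a1), -1.21 (Col1a2), -2.85 (Thy1), 3.26 (Sparcl1), -4.01 (Sema3c), -0.85 (Nrp2), -2.16 (Apela) and 2.19 (Aplnr).

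Among metabolic, stress and cycle genes the differences were 0.37 (Ldhb), 0.59 (Slc2a3), 1.34 (Pdk1), 2.04 (Ddit4), -0.80 (Atf4), -1.41 (Egr1), 1.15 (Ccnd2) and -0.59 (Ccnd1), and among imprinted genes -2.97 (H19), -1.37 (Phlda2) and 0.61 (Peg3). The largest upward differences were 8.41 (Rhbg), 6.72 (Wnt7a), 5.25 (L1cam), 4.67 (Ntm) and 4.36 (Meis1). Wildtype levels of Rhbg and Wnt7a lay under the limit of a count of 0, so that these sizes are poorly measured.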

How the results depend on the processing

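The 2560 genes called between d4 and d3 numbered 1891 to 2324 when 1 of the 6 libraries was left out, 2112 by DESeq2 and 1648 when every library was thinned to the smallest total of the series. The 695 differences between genotypes numbered 443 to 1157 when 1 of the 12 libraries was left out, 440 when only the libraries compared entered the fit, for which the cause was not tested, and 430 after thinning, which leaves fewer counts. All other alternatives left both counts within 1.5 times of the first value. Of 210 named genes called, 173 were called under every alternative run. Gene by gene, a sign counts as turned where the gene was called in either fit. Leaving out each library in turn gave log2 ranges of -0.89 to 1.22 (Dnmt3b), -1.91 to 2.31 (Pou3f1), -0.93 to 1.77 (Pim2), -1.10 to 3.73 (Fgf5), -2.02 to 3.05 (Otx2), -1.86 to 0.54 (Utf1) and -0.73 to 0.83 (L1td1), the lowest each time without d4 wildtype replicate 2, and the sign of no other named gene turned. With only the compared libraries and without that library, an alternative chosen after seeing the data, they were -0.90 (Dnmt3b), -1.93 (Pou3f1), -0.95 (Pim2), -1.88 (Utf1) and -0.75 (L1td1), and 2281 genes were called.

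The labels do not say whether replicate numbers pair the samples, and the main fit used no block. Deviations of same-numbered d3 and d4 libraries correlated at 0.05, -0.02 and 0.12 across 8158 genes. Libraries with unlike numbers correlated at -0.12 to 0.07. With 3 libraries per group this check cannot exclude a pairing. With a replicate block 2614 genes were called between d4 and d3, and 787 differed between genotypes. With the block and only the libraries compared these were 2747 and 667. At these depths a gene with a count of 0 in 1 library may lie anywhere up to 1.45 CPM.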
